A study of Mus musculus with 2 samples.

Results

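The cells described here are type 2 dendritic cells marked by Cd209a, the mouse homologue of the C-type lectin DC-SIGN, among CD45+ cells sorted from B16F10 melanomas. The members were selected on transcript counts. A cell had to carry a single sample tag, 200 or more detected genes and no more than 25% of its molecules from mitochondrial genes, and to hold at least 2 molecules of Cd209a. It also had to hold no molecule of the type 1 markers Xcr1 and Clec9a, fewer than 5 of the maturation genes Fscn1 and Ccr7, fewer than 10 of the C1q chains C1qa, C1qb and C1qc, and at most 1 of the T cell genes Cd3e, Cd3d and Trac. This gave 174 of 10491 kept cells, or 1.66% (exact 95% binomial interval 1.42% to 1.92%, counting error only). The rule is itself a set of measured values, so the levels of those genes in the members are a description and support nothing.

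B16F10 is a mouse melanoma line, and wildtype, Tyr knockout and oca2 knockout cells were grown under the skin of female C57BL/6 mice, on the right flank, with 3 mice per genotype. Tyr encodes tyrosinase and Oca2 a melanosome transporter, both needed for pigment. Cells of each genotype were given a sample tag, an oligonucleotide-coupled antibody, and were pooled into 1 BD Rhapsody capture, in which each cell's messenger RNA was counted as unique molecules. The tag calls name tags 8, 9 and 10 but no genotype, so every value below is given per tag, in the order 8, 9 and 10. No genotype was inferred and no comparison of genotypes was made. The labels do not say whether the mice behind a tag were kept apart, or whether a knockout line was 1 clone, so a tag is 1 pooled sample and no test over animals was possible. Only CD45+ cells were sorted, so the shares below are shares of sorted cells.

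Conventional type 2 dendritic cells are a lineage of antigen-presenting cells that arise from Flt3-dependent precursors under transcription factors such as Irf4 and Zeb2, and they are best known for presenting antigen on MHC class II to CD4+ T cells. They share several surface genes with monocyte-derived cells, which arise through Csf1r. The Cd209 genes encode lectins that bind carbohydrates on microbes and on other cells.

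The members were compared with 3 other classes of kept cells, all with no Cd209a molecule. Monocytes were the 1470 cells with at least 10 molecules of Lyz2 and at least 3 of Ly6c2 and Chil3. Type 1 dendritic cells were the 150 cells with at least 2 molecules of Xcr1 and Clec9a and under the other limits of the members. CCR7 dendritic cells, a mature migratory state, were the 386 cells with at least 5 molecules of Fscn1 and Ccr7, at least 1 of them Ccr7, and under the same C1q and T cell limits. The members had a median of 6065 molecules per cell, against 7863.5 in monocytes, 11992.5 in type 1 and 6203.5 in CCR7 dendritic cells. Levels are given as CPM, counts per 1000000 molecules summed over the class within a tag. The members of the 3 tags summed to 466061, 341933 and 363607 molecules, so that 1 molecule stood for 2 to 3 CPM.

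Before the other criteria, 310 kept cells held at least 2 Cd209a molecules. Of these, 35 held Xcr1 or Clec9a, 68 reached the Fscn1 and Ccr7 limit, 23 the C1q limit and 33 the T cell limit, with some cells in several of these sets. The members held a median of 7 Cd209a molecules and at most 73. Just inside the limit, 30 members held exactly 2 molecules. Just outside it, 82 cells met every other criterion with 1 molecule. The border to monocytes was not sharp either, since 18 members (10.3%) met the Lyz2 and the Ly6c2 and Chil3 limits used for monocytes.

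The label was set beside its 4 other markers, which the rule did not use but which were listed with these data in view. Of Mgl2, Clec10a, H2-DMb2 and Cdh1, 17 members held all 4, 42 held 3, 40 held 2 and 49 held 1, while 26 (14.9%) held none. Among monocytes, 1023 of 1470 (69.6%) held none and 21 held 3 or more, although their median depth was higher. Exactly 2 markers were held by 23.0% of members and 3.81% of monocytes, and exactly 1 by 28.2% and 25.2%. Taken singly, Clec10a was found in 66.7% of members and 18.4% of monocytes, and H2-DMb2 in 48.3% and 9.32%. Cdh1 was found in 44.3% and 2.79%, and Mgl2 in 26.4% and 6.73%. H2-DMb2 was also found in 60.7% of type 1 and 46.9% of CCR7 dendritic cells, against 48.3% of members. These shares were not corrected for depth, which was highest in type 1 dendritic cells. With each cell thinned to 1000 molecules, H2-DMb2 was found in 22.4% of members, 12.7% of type 1 and 18.7% of CCR7 dendritic cells. The members were then the highest of these classes, although the exact intervals, for counting error only, overlapped. The pattern describes the members and does not test the label, and 14.9% rested on Cd209a alone.

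The promoters of Cd209a, Cd209e and Cd209d are shown because, of the Cd209 genes detected in the members, these share a motif. They lie on the minus strand of chromosome 8 (GRCm38.p6), with Cd209a at 3743397 to 3748984, Cd209e at 3847965 to 3854309 and Cd209d at 3871824 to 3878555. The stretches run 5′ to 3′ up to the annotated gene start, cut from RefSeq promoter windows: chr8:3748984-3749234 for Cd209a, of which the last base lies inside the gene, chr8:3854310-3854536 for Cd209e and chr8:3878556-3878749 for Cd209d. Capitals mark matches to 2 motifs, a composite of the ETS core GGAA followed after any 2 bases by the IRF core GAAA, and GAGGAA, the core of a PU.1 site. Both were searched on both strands and do not overlap in these stretches.
Cd209a: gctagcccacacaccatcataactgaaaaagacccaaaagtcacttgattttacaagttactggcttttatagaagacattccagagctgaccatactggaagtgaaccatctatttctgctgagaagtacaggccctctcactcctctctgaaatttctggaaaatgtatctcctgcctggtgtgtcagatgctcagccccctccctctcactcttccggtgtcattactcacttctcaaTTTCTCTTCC
Cd209e: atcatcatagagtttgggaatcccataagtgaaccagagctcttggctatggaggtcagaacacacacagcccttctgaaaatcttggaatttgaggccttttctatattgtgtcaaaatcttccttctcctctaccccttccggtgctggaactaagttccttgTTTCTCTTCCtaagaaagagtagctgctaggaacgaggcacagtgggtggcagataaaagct
Cd209d: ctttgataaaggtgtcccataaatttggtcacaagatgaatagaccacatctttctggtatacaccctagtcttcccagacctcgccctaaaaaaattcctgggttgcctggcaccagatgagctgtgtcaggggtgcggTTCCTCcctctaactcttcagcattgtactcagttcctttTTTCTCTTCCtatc
Each stretch held the composite once, read on the opposite strand as TTTCTCTTCC, with the same letters at its NN positions in all 3 genes. Among 32851 mouse promoter windows of 300 bases, 2.72% held the composite. The 3 genes were picked for holding it, so its presence in all 3 was set by the choice. The PU.1 core was found once, in Cd209d, and 28.3% of windows held it. Identity was 54.8% between the Cd209a and Cd209e stretches, 66.7% between Cd209a and Cd209d and 60.3% between Cd209e and Cd209d. The composite was not found in the windows of Cd209b, Cd209c, Cd209f, Cd209g, Mgl2 or H2-DMb2. A match in letters is a description of the sequence, and binding was not measured.

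The members carried transcripts of other Cd209 receptors, the lectin genes beside Cd209a. Cd209d stood at 139, 152 and 165 CPM in the members (177 molecules) and at 0.242, 0 and 0.754 CPM in monocytes (5 molecules). It was at 2 molecules in type 1 and 6 in CCR7 dendritic cells, so the members lay above all 3 classes in every tag. All 3 classes were chosen to hold no Cd209a, and cells with the other Cd209 receptors often held Cd209a as well. That choice kept such cells out of the compared classes, and its part in these differences was not tested. Kept cells outside the members held 248 Cd209d molecules in all. Cd209e stood at 23.6, 49.7 and 71.5 CPM in the members (54 molecules), with 0 molecules in monocytes, where a count of 0 allows up to 0.224 CPM, and 1 in type 1 dendritic cells. Cd209c stood at 38.6, 43.9 and 35.8 CPM in the members (46 molecules), against 6 molecules in monocytes, 0 in type 1 and 14 in CCR7 dendritic cells. Cd209b was sparse, with 15 molecules in 2.87% of members and 0 in the other 3 classes. No molecule of Cd209f or Cd209g was found in the members. No stretch of 50 bases was shared among the annotated transcripts of Cd209a to Cd209e.

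These receptors were spread unevenly over the members. Cd209d was found in 44 members (25.3%), Cd209c in 30 (17.2%), Cd209e in 16 (9.20%) and Cd209b in 5 (2.87%). Monocytes with a median depth of 7863.5 molecules held Cd209d in 0.340% and Cd209c in 0.408% of cells. The members, 1.66% of the kept cells, held 41.6% of all Cd209d molecules in kept cells (177 of 425), 39.7% of Cd209e (54 of 136) and 23.0% of Cd209c (46 of 200). Over all kept cells, 4.44% held Cd209a. Of the 151 kept cells with Cd209d, 101 (66.9%, exact 95% interval 58.8% to 74.3%) also held Cd209a, as did 41 of 44 cells with Cd209e (93.2%, 81.3% to 98.6%) and 76 of 137 with Cd209c (55.5%, 46.7% to 64.0%).

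The other given markers differed in how far they set the members apart from each class. Cdh1, which encodes the adhesion molecule E-cadherin, stood at 169.5, 178 and 176 CPM in the members, against 8.95, 5.29 and 2.83 CPM in monocytes. It did not exceed 10.2 CPM in any tag of the type 1 or CCR7 dendritic cells, so the members were far above all 3 classes with little spread between tags (median log2 ratio 5.08, 4.58 and 5.47). Clec10a, a galactose-binding lectin, stood at 499.9, 453 and 377 CPM, against 31.0, 32.0 and 46.9 CPM in monocytes (median log2 ratio 3.83). Its levels in the other dendritic classes, 11.6 to 42.1 CPM, overlapped those of monocytes.

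Mgl2, the paralogous lectin known as CD301b, was more variable. It stood at 547, 599.5 and 189.8 CPM in the members, against 33.4, 22.4 and 38.3 CPM in monocytes, so tag 10 was lower than the other tags but still above every monocyte value. In CCR7 dendritic cells Mgl2 stood at 58.3, 227 and 114 CPM, and their highest tag exceeded the lowest tag of the members. Annotated Mgl2 and Clec10a transcripts shared 242 stretches of 50 bases (13.5% of those of Mgl2 and 8.63% of those of Clec10a), so the split of counts between this pair is uncertain. H2-DMb2, a chain of the peptide editor H2-M, stood at 371, 325 and 355 CPM, against 18.1, 12.8 and 19.8 CPM in monocytes (median log2 ratio 4.35). It stood at 126, 155 and 156 CPM in type 1 dendritic cells (median log2 ratio 1.18), and at 269.5, 263 and 293 CPM in CCR7 dendritic cells, where the ratio of 0.30 did not reach 2-fold.

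For a broader view, a gene was called higher where the members exceeded the other class 2-fold or more in CPM in tags 8, 9 and 10 alike, and called lower for the reverse. Genes needed 30 molecules over the 2 classes, a count of 0 was set to 3, and the genes of the rule were never called. Where tags of 2 classes are said not to overlap, this describes the named genes only. The share of all tested genes without overlap was not counted. Against monocytes, 398 of 10122 genes were higher (3.93%) and 456 were lower (4.51%), with a median log2 ratio over all genes of 0.03. Higher genes were 46.6% of these calls, 37.0% of those with TMM scaling factors and 53.3% of those with totals that left out mitochondrial, ribosomal and immunoglobulin genes. Over the gene lists, 32 of 269 tested genes were higher and 72 lower, with a median of -0.44.

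Several of the genes furthest above monocytes belong to no dendritic list. Cd7, an immunoglobulin superfamily receptor known from T and NK cells, stood at 453, 316 and 575 CPM in the members and at 6.29, 3.02 and 10.9 CPM in monocytes (median log2 ratio 6.17). It was found in 55.2% of members and 2.31% of monocytes. Klrd1, the CD94 chain of NK receptors, stood at 409.8, 263 and 215 CPM, against 14.0, 10.6 and 7.91 CPM. Beside these values, the summed level of 6 NK genes was 19.3 to 43.9 CPM in the members, with Ncr1 and Klrb1c at 0, and that of 6 T cell genes 8.25 to 40.9 CPM, with Cd247 at 0.

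Metabolic and receptor genes were also among the leading genes. Kmo, an enzyme of tryptophan breakdown along the kynurenine path, stood at 247, 202 and 261 CPM, against 6.78, 10.8 and 7.54 CPM in monocytes (median log2 ratio 5.12). Cyp7b1, an oxysterol hydroxylase, stood at 36.5, 38.02 and 71.5 CPM, against 0.484, 1.26 and 3.58 CPM. Gpr183, the receptor for hydroxylated oxysterols, stood at 137, 93.6 and 88.0 CPM, against 36.8, 29.2 and 39.4 CPM, a call lost after thinning to 1000 molecules (2.46). None of these 3 genes overlapped between members and monocytes. Ffar2, a receptor for short-chain fatty acids, stood at 142, 55.6 and 63.3 CPM (108 molecules), against 11 molecules in all monocytes. Ddr1, a collagen receptor kinase, was at 45.1, 46.8 and 27.5 CPM and Ngfr, the p75 neurotrophin receptor, at 36.5, 49.7 and 79.8 CPM, each found in under 20% of members. Ctnnd2, a catenin that binds cadherins, stood at 152, 105 and 88.0 CPM, against 3.20 to 4.03 CPM in monocytes.

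The MHC class II genes were uneven in how far they exceeded monocytes. Of 14 tested genes of presentation, 7 were higher and none lower, with a median log2 ratio of 1.11 against 0.03 over all genes. The accessory genes stood furthest apart: H2-Ob, a chain of the regulator H2-O, was at 101, 70.2 and 63.3 CPM against 7.26, 6.04 and 9.05 CPM, and its partner H2-Oa at 42.9, 32.2 and 41.3 CPM against 2.66, 1.76 and 1.51 CPM. Ciita, the transactivator of the class II genes, stood at 178, 129 and 146 CPM, against 18.9, 40.5 and 42.0 CPM, a call lost after thinning (1.41). H2-DMb1, the other H2-M beta chain gene, was also higher.

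The presenting molecules themselves differed less. H2-Ab1 stood at 12331, 10768 and 9356 CPM, against 2697, 4853 and 4525 CPM in monocytes, where tag 8 was the lowest (median log2 ratio 1.15). H2-Eb1 reached a median log2 ratio of 1.02, and both calls were lost with TMM scaling factors (1.0 and 0.89) and when 3 Cd209a molecules were required (1.29 and 1.17). H2-Aa, at 10505, 9303 and 8168 CPM against 2628, 4518 and 4237 CPM, missed the call in tag 10 and was called with that tag left out (1.52). Cd74, the invariant chain, stood at 12923, 11368 and 11424 CPM, against 3877, 6376 and 5965 CPM, and was not called either. No members' tag overlapped a monocyte tag for these 4 genes.

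Transcription factors of the dendritic lineage were partly higher. Of 20 tested, 4 were higher and 3 lower than in monocytes. Irf4 stood at 66.5, 90.7 and 77.0 CPM against 10.4, 14.1 and 13.8 CPM. Zbtb46, which marks conventional dendritic cells, stood at 25.7, 84.8 and 38.5 CPM against 3.39, 1.76 and 3.77 CPM. Bcl11a stood at 77.2, 114 and 113 CPM against 3.39, 6.80 and 3.96 CPM, so for these 3 genes every tag of the members lay above every tag of monocytes. Tcf4 reached a median log2 ratio of 1.28, with 52.3% of members and 48.8% of monocytes holding it. After each cell was thinned to 1000 molecules, 22.4% of members and 10.6% of monocytes held Tcf4.

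The lower factors included Cebpb and Id2. Cebpb, a factor of the myeloid lineage, stood at 124, 152 and 113 CPM in the members against 432, 548 and 497 CPM in monocytes. It was found in 36.2% of members and 89.7% of monocytes. Id2, which type 1 dendritic cells require, stood at 300.4, 345 and 264 CPM against 1063, 1008 and 977 CPM. Irf8 stood at 167, 234 and 154 CPM against 169, 279 and 219 CPM and was not called, nor was Klf4, at 493, 330.5 and 501 CPM against 732, 580.2 and 789 CPM.

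Of 7 growth factor receptors, 3 were higher and 2 lower. Flt3, the receptor for the dendritic growth factor, stood at 94.4, 64.3 and 82.5 CPM in the members against 4.84, 6.80 and 3.20 CPM in monocytes (median log2 ratio 4.29). Kit, the stem cell factor receptor, stood at 42.9, 49.7 and 55.0 CPM against 5.08, 3.02 and 9.61 CPM, and Csf2rb, the common beta chain for GM-CSF, at 959, 1337 and 1152 CPM against 401, 562 and 519 CPM. Csf1r, the monocyte growth factor receptor, was lower, at 229.6, 190.1 and 162 CPM against 546, 502 and 574 CPM (median log2 ratio -1.40). The call of Csf2rb was lost when monocytes were held to the exclusions of the members.

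**Figure D1:**
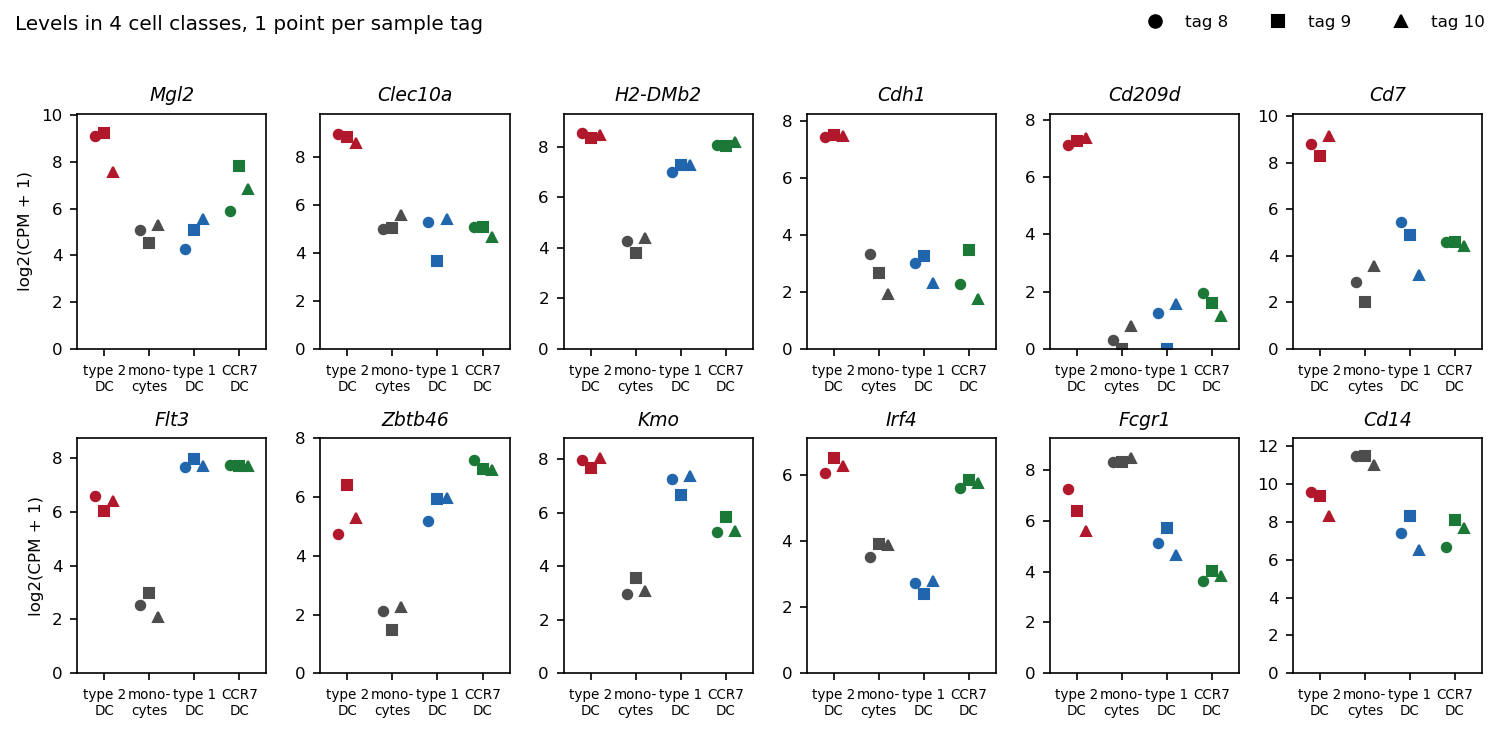
Levels of 12 genes as log2(CPM + 1), with 1 point for each of the 3 tags in each of the 4 classes. For Cd209d the members sit between 139 and 165 CPM and the monocytes at or under 0.754 CPM, while for H2-DMb2 the CCR7 dendritic cells reach 293 CPM beside 325 to 371 CPM in the members.

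Secreted factors were mostly lower than in monocytes. Of 18 chemokines, 13 were lower and none higher, with a median log2 ratio of -3.0. Ccl4, a chemokine that attracts myeloid and T cells, stood at 571, 459 and 605 CPM against 4086, 3709.7 and 2407 CPM. Ccl2, the ligand of Ccr2, stood at 391, 102 and 66.0 CPM against 3752, 2165 and 2012 CPM, and 61.8% of the members' molecules came from 1 cell. The interferon-inducible Cxcl10 was not called, at 789.6, 921 and 1169 CPM against 1003, 1709 and 1144 CPM. Ccl17 and Ccl22, ligands of Ccr4, were not called either. With monocytes held to the exclusions of the members, which leaves 886 of 1470, their median log2 ratios moved from 0.70 and 0.80 to 4.58 and 2.95, and both were then called. Ccl17 was sparse, found in 6.32% of members and 1.56% of all 1470 monocytes.

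Of 17 cytokines and antagonists, 2 were higher and 8 lower. Il1r2, the decoy receptor for interleukin 1, stood at 1255, 746 and 795 CPM in the members against 172, 102 and 121 CPM in monocytes, and was found in 66.7% and 35.2% of cells. Il1rn, the antagonist of the same cytokine, was lower, at 294, 287 and 264 CPM against 2312, 2682 and 1407 CPM. Il1b itself stood at 3463, 2816 and 1636 CPM against 5786, 5602 and 2956 CPM and was not called. Tnf stood at 268, 196 and 371 CPM against 1111, 1563 and 1561 CPM, and Il10 at 34.3, 20.5 and 2.75 CPM against 761, 591 and 513 CPM, with no overlap for either gene.

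Genes of monocytes and macrophages were largely lower. The C1q limit applied to the members only, and 530 of the 1470 monocytes held 10 or more C1q molecules. Of 19 tested monocyte genes 13 were lower, with a median log2 ratio of -2.09, and of 10 macrophage genes 8 were lower, with a median of -3.95. Cd14, the lipopolysaccharide co-receptor, stood at 762, 667 and 314 CPM against 2844, 2830.4 and 2034 CPM. Ccr2, which brings monocytes out of the bone marrow, stood at 650.1, 415 and 457 CPM against 805, 649.7 and 636 CPM and was not called. Plac8, Ms4a6c and Ms4a4c were not called either. Apoe stood at 191, 49.7 and 41.3 CPM against 1716, 1226 and 2605 CPM, with 46.3% of the members' molecules in 1 cell.

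Of 10 lysosomal proteases and cystatins 7 were lower, among them the protease Lgmn at 249, 111 and 107 CPM against 1031, 688 and 964 CPM. Of 17 pattern recognition genes 5 were lower (Tlr2, Tlr6, Tlr7, Tlr13 and Nlrp3) and none higher. Of 17 C-type lectins, the 5 higher were Mgl2, Clec10a, Cd209c, Cd209d and Cd209e, and 7 were lower. Clec4e, the lectin Mincle, was among the latter at 141.6, 178 and 77.0 CPM against 1464, 1605 and 900.2 CPM. No gene was called among 12 type I interferon genes, 12 interferon gamma genes, 12 proliferation genes and 12 genes of dissociation stress. Of 10 adhesion genes, Cdh1 and the integrin chains Itgax and Itgb7 were higher, and of 11 costimulation genes Icosl, the ligand of Icos, was the only call, at 105, 99.4 and 159.5 CPM against 33.4, 37.8 and 36.4 CPM.

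**Figure D2:**
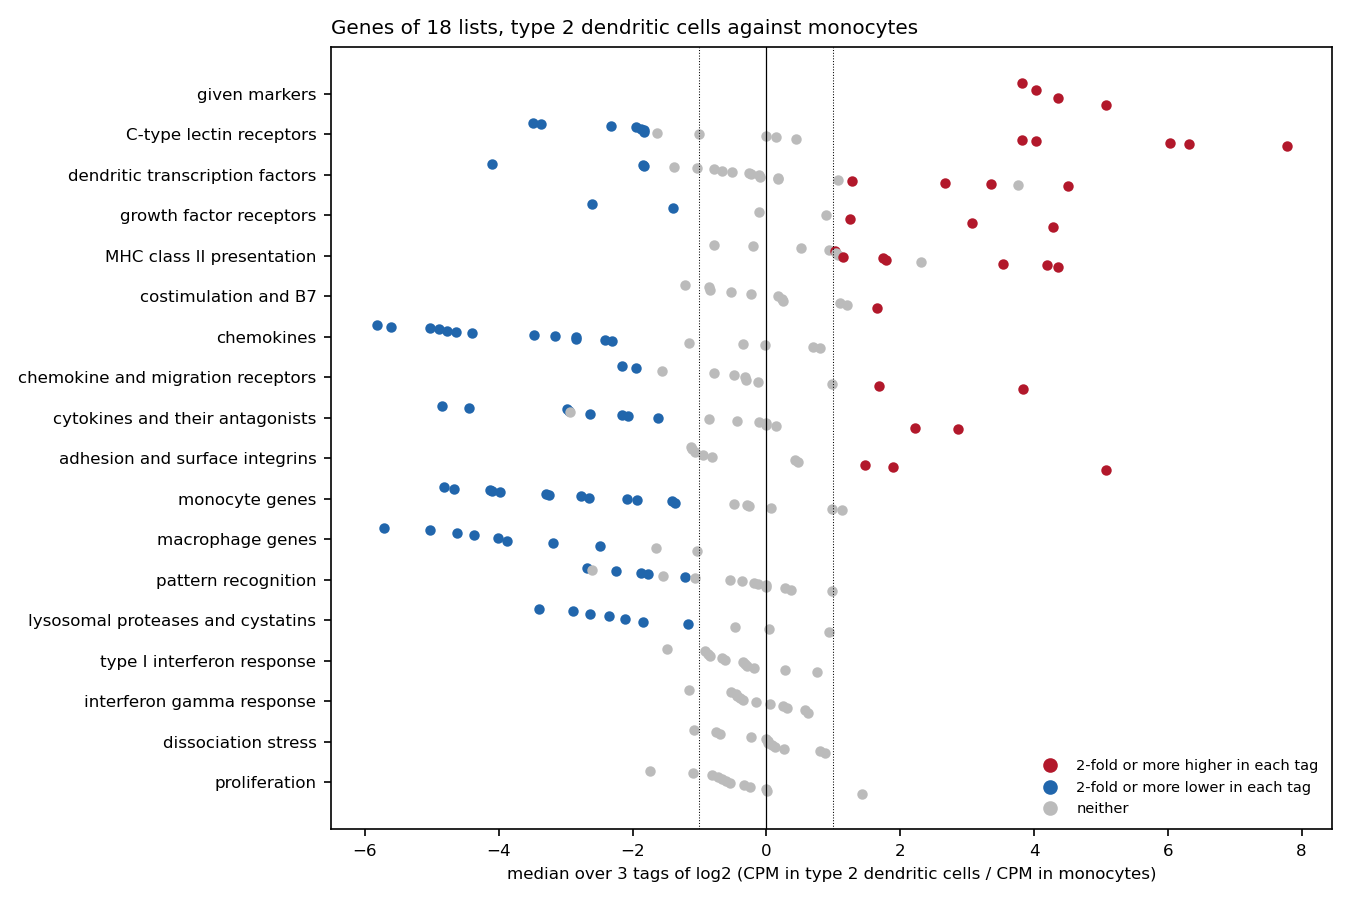
Each point is 1 tested gene of a list, placed at its median over the 3 tags of the log2 ratio of CPM in the members to CPM in monocytes, with dotted lines at 2-fold. The 18 chemokines have a median of -3.0 and the 14 MHC class II genes of 1.11, beside 0.03 for all tested genes.

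Because depth differed between the classes, each cell was also thinned at random to 1000 molecules, which left all 174 members and all but 1 monocyte and 1 CCR7 dendritic cell. Clec10a was then found in 27.6% of members (66.7% unthinned) and 3.27% of monocytes (18.4% unthinned). Cdh1 was found in 13.8% (44.3%) of members and 0.408% (2.79%) of monocytes, and Cd209d in 13.2% of members and 0 of 1469 monocytes, which allows a share of up to 0.204%. For these 3 genes the members were the highest class both here and in CPM, with Cd209d set against classes chosen to hold no Cd209a. Flt3 was found in 11.5% of members, 0.204% of monocytes, 20.7% of type 1 and 20.8% of CCR7 dendritic cells. Cd14 was found in 29.3% of members and 83.3% of monocytes. Il1r2 was found in 37.4% of members, above 9.39% of monocytes, 8% of type 1 and 19.2% of CCR7 dendritic cells.

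**Figure D3:**
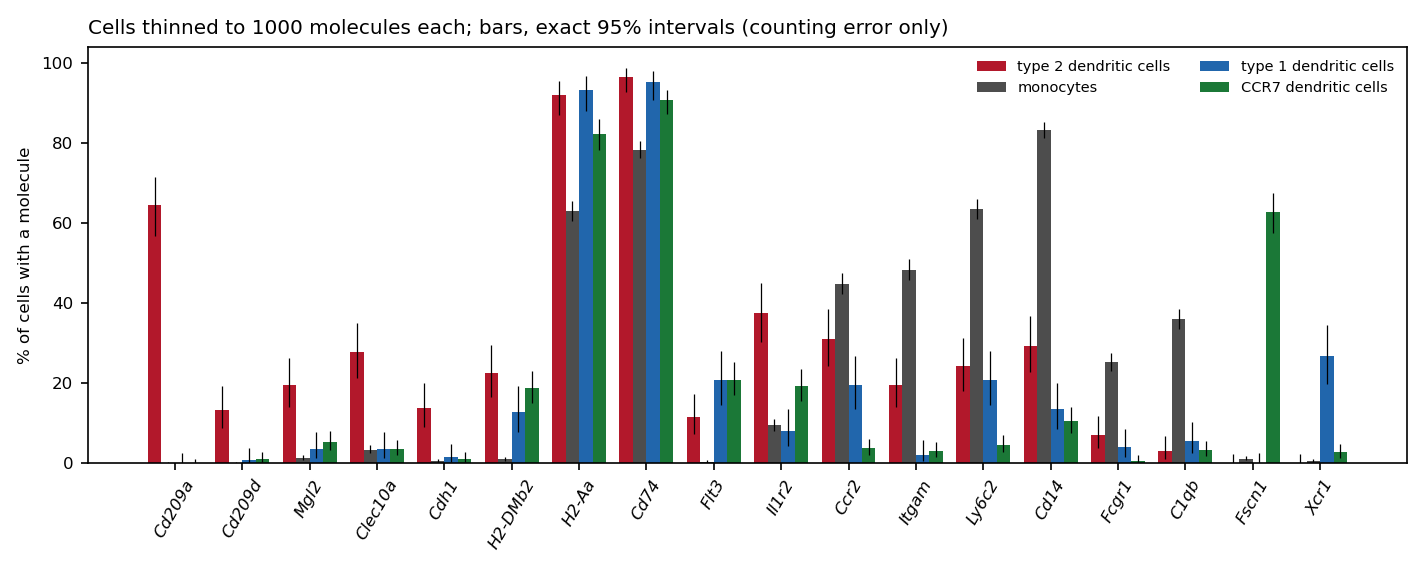
Share of cells with at least 1 molecule after thinning each cell to 1000 molecules, in percent, as bars with exact 95% binomial intervals that cover counting error only. For Clec10a the members stand at 27.6% and the other 3 classes between 3.27% and 3.38%; Cd209a, Fscn1 and Xcr1 were used to choose the classes.

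Against type 1 dendritic cells, 321 of 7590 genes were higher in the members (4.23%) and 327 lower (4.31%), with a median log2 ratio of -0.06 over all genes. Over the gene lists, 45 of 224 tested genes were higher and 33 lower. All 10 tested type 1 genes were lower, among them the integrin chain Itgae and the adhesion molecule Cadm1. The members were separated from this class on Xcr1 and Clec9a, so these lower genes are a description and do not test the labels. Irf8 stood at 167, 234 and 154 CPM in the members and 1083, 1139.6 and 955 CPM in type 1 dendritic cells, and Irf4 at 66.5, 90.7 and 77.0 CPM against 5.66, 4.34 and 6.01 CPM. Zeb2 was higher in the members, at 191, 333 and 193 CPM against 49.5, 55.0 and 38.1 CPM.

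Both classes carried Flt3 and MHC class II. Flt3 and Kit were lower in the members than in type 1 dendritic cells, by median log2 ratios of -1.32 and -1.5, while Csf1r was higher, at 2.39. The Flt3 call was lost when cells were thinned to 1000 molecules (-0.68), and so was that of Zeb2 (1.63). H2-DMb2 was the only called gene of 12 tested in the presentation list, and its call was lost when 3 Cd209a molecules were required (1.12). H2-Aa stood at 10505, 9303 and 8168 CPM in the members against 9343, 10435 and 9809 CPM, ranges that overlapped. Of 12 proliferation genes 10 were lower in the members. Mki67, which marks dividing cells, stood at 38.6, 23.4 and 27.5 CPM against 80.6, 159 and 150.2 CPM, and its call was lost with TMM scaling factors (-2.42). Type 1 dendritic cells also had the higher median depth, 11992.5 against 6065 molecules, so shares of cells were also compared after thinning to 1000 molecules. Top2a, a topoisomerase of dividing cells, was then found in 1.72% of members (4.02% unthinned) and 11.3% of type 1 dendritic cells (27.3%), and Tubb5, a tubulin, in 16.7% (48.9%) and 32.0% (75.3%). Mki67 was found in 2.87% (13.2%) and 4.67% (30%), and its exact 95% intervals after thinning, 0.939% to 6.58% and 1.897% to 9.38%, overlapped.

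Some interferon-induced genes were higher than in type 1 dendritic cells. Of 12 type I interferon genes, 5 were called higher (Isg15, Ifit1, Ifit3, Oasl2 and Rtp4) and none lower, with a median log2 ratio of 1.58. Of 12 interferon gamma genes, 3 were called higher (Gbp3, Gbp7 and Cxcl10) and none lower. Cxcl9 was not called, at 30.04, 196 and 627 CPM against 171, 554 and 519 CPM. Isg15, a ubiquitin-like modifier, stood at 371, 368 and 212 CPM against 113, 145 and 70.1 CPM. Cxcl10 stood at 789.6, 921 and 1169 CPM against 153, 281 and 128 CPM, and Il1b at 3463, 2816 and 1636 CPM against 1246, 1095 and 463 CPM. For Isg15, Cxcl10 and Il1b the tags of the classes did not overlap.

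Against CCR7 dendritic cells, 435 of 8204 genes were higher (5.3%) and 466 lower (5.68%), with a median log2 ratio of 0.05 over all genes. Of 10 tested genes of the mature state, 9 were lower in the members, which were separated from this class on Fscn1 and Ccr7. Ccl22 stood at 109, 49.7 and 93.5 CPM in the members against 3269.6, 2368 and 1633 CPM, and Ccl5 at 49.3, 123 and 41.3 CPM against 3965, 2635 and 4728 CPM. Il12b, a subunit of interleukin 12, gave 1 molecule in the members, against 949, 439 and 1082 CPM in CCR7 dendritic cells. Ccr7, which the rule limited in the members, stood at 92.3, 96.5 and 135 CPM.

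Costimulatory and trafficking genes were called in opposite directions in that comparison. Of 11 costimulation genes, Cd40, Cd274, Pdcd1lg2 and Tnfsf4 were lower and Vsir higher. Cd40 stood at 64.4, 102 and 105 CPM against 289, 304 and 301 CPM, and Cd274, which encodes PD-L1, at 114, 295 and 154 CPM against 509, 711 and 632 CPM. Of 8 chemokine and migration receptors, 5 were higher, among them Ccr1, Ccr2 and Ccr9, and none lower. For Ccr9, 91.3% of the members' molecules lay in 9 cells with plasmacytoid transcripts, and without them it stood at 15.7, 3.15 and 5.61 CPM, under the 30 molecules needed for a call. Ccr2 stood at 650.1, 415 and 457 CPM against 38.2, 34.7 and 39.6 CPM, with no overlap between the classes. Of 17 monocyte genes 10 were higher in the members. H2-DMa and H2-DMb1 were higher as well, the latter at 558, 562 and 578 CPM against 98.4, 116 and 96.1 CPM.

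The members varied among themselves with the level of the rule gene. The 82 cells with 1 Cd209a molecule, just outside the rule, and the members with 2 molecules (30 cells), 3 or 4 (33 cells) and 5 or more (111 cells) were summed apart. Clec10a stood at 157, 265, 318 and 524 CPM in that order, and Cd209d at 14.0, 122, 126 and 164 CPM. H2-Aa stood at 5304, 7176, 8057 and 10304 CPM. Mgl2 did not follow this order, at 219, 285, 131 and 567 CPM. Lyz2 had the reverse order, at 3481, 1674, 958 and 879 CPM. Median depth went from 3059 molecules outside the rule to 5605, 5611 and 6695 inside it, and its part in these orders was not tested.

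**Figure D4:**
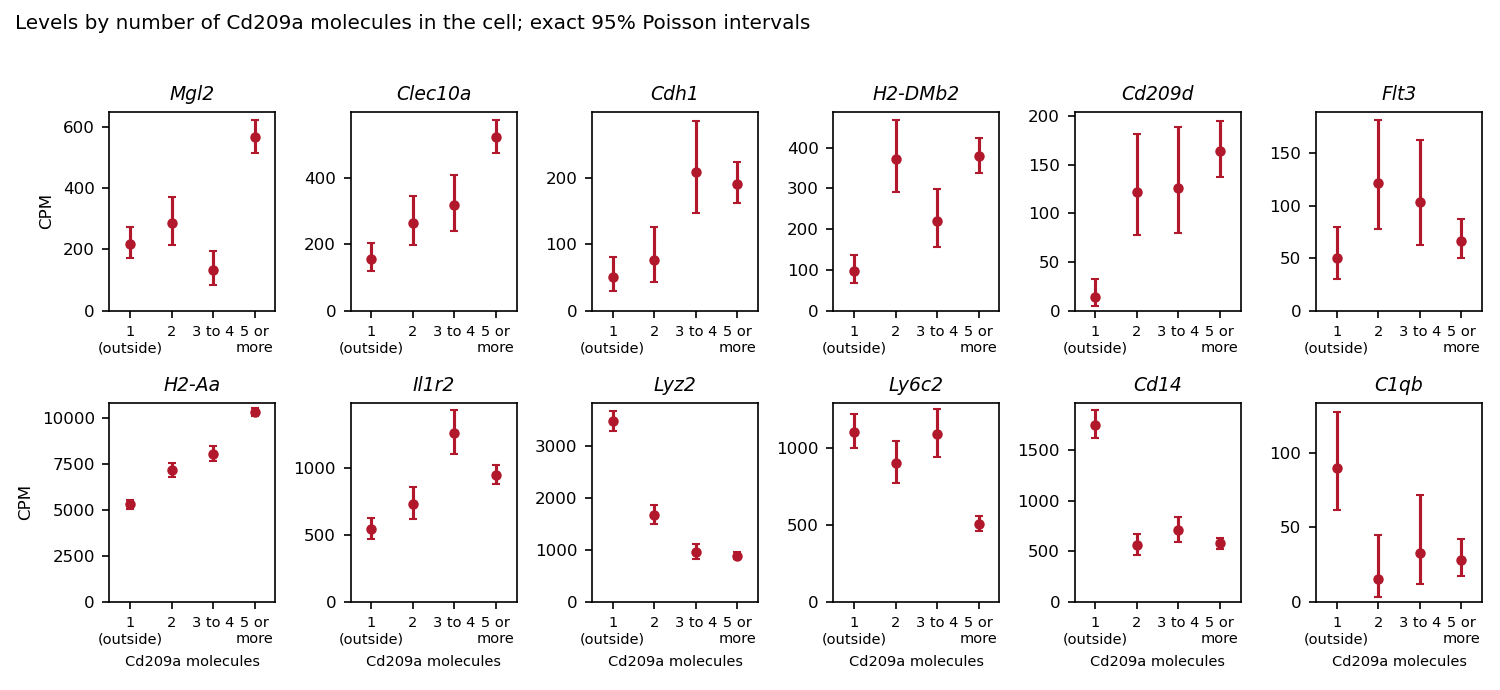
Levels in CPM of 12 genes by the number of Cd209a molecules in a cell, from 1 (outside the rule) to 5 or more, with exact 95% Poisson intervals that cover counting error only. Clec10a stands at 157 CPM outside the rule and 524 CPM at 5 or more molecules, and Lyz2 at 3481 and 879 CPM.

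Mgl2 split the members into 46 with a molecule and 128 without. The cells with Mgl2 had more Cd209d (229 against 113 CPM) and more Cd209e (91.2 against 24.1 CPM). Interferon-induced genes were uneven, with more Ifit3 (214 against 44.4 CPM) and Rsad2 (498 against 114 CPM) in the cells with Mgl2, but 234 against 278 CPM of Cxcl9 and 292 against 301 CPM of Gbp2. Ly6c2 stood at 445 against 770.5 CPM. Their median depth was also higher, 7451.5 against 5853.5 molecules. A split by Ly6c2 and Chil3 gave 122 members with fewer than 3 molecules and 52 with 3 or more. The 52 cells held less Cd209a (883 against 1616 CPM), Mgl2 (131 against 620 CPM) and Cst3 (2516 against 4520 CPM), and more Lyz2 (2355 against 324 CPM). They also held more Ccr9 (242 against 22.2 CPM). Ly6c2 stood at 3610 CPM in the 9 members with plasmacytoid transcripts and at 525 CPM in the other members, so this split is not one of monocyte genes alone. These are values of cells split by their own transcripts, with no test.

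A small set of members carried transcripts of plasmacytoid dendritic cells, the interferon-producing lineage marked by Siglech. In 9 members (4, 4 and 1 in the tags) there were 3 or more molecules over Siglech, Ccr9, Cox6a2, Klk1 and Ly6d. They held 90.7% of the members' Siglech molecules and 91.3% of their Ccr9 molecules. Their shares were 31.8% for Irf8, 24.6% for Ly6c2, 22.9% for Flt3 and 13.6% for Cd209d. Over all genes they held 52915 of the members' 1171601 molecules, a smaller share than for any of these genes. Siglech stood at 1285 CPM in these 9 cells and at 6.26 CPM in the other 165 members. In the same order, Flt3 stood at 416 and 66.1 CPM, Cd209d at 454 and 137 CPM, and Cd209a at 926 and 1384 CPM. Irf8 stood at 112, 126 and 157 CPM in those 165 members. Spib, an ETS factor of plasmacytoid cells called higher than in monocytes, had 71.4% of its molecules in these 9 cells and stood at 24.7, 18.9 and 8.42 CPM without them. Without these cells, an alternative added after seeing the data, 4 calls of named genes against monocytes were lost, those of Ccr9, Tcf4, Ighm and Fcgr1 (median log2 ratios 0.64, 1.05, 1.26 and -1.82), and 2 against CCR7 dendritic cells, those of Ighm and Kit (1.34 and -1.04).

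The members' share of kept cells was similar in the 3 tags. It was 1.86% (62 of 3336 cells, exact 95% interval 1.43% to 2.38%), 1.58% (55 of 3486, 1.19% to 2.05%) and 1.55% (57 of 3669, 1.18% to 2.01%), and the intervals overlapped. With 1 Cd209a molecule allowed, the median share over the tags moved from 1.58% to 2.35%.

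Most genes were also at similar levels in the members of the 3 tags. Over 678 genes with at least 300 molecules in the members, the median ratio of the highest to the lowest tag was 1.21, and 87.9% lay under 1.5. The 5 genes with the largest ratio were Cxcl9, Gbp2, Ptgs2, Ccl6 and Mgl2. Cxcl9, a chemokine induced by interferon gamma, stood at 30.04, 196 and 627 CPM, a ratio of 20.9 from tag 8 to tag 10, and was found in 7, 12 and 16 members. In monocytes Cxcl9 stood at 66.8, 770.3 and 630.4 CPM, so that tag 8 was the lowest in both classes. Gbp2, an interferon-induced GTPase, stood at 90.1, 421 and 448 CPM in the members and 129.5, 714 and 359.6 CPM in monocytes, again lowest in tag 8.

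The other 3 genes were lowest in tag 10. Ptgs2, the inducible cyclooxygenase, stood at 798, 412 and 193 CPM, in 37, 23 and 22 members. Ccl6 stood at 556, 208 and 151 CPM, and without the cell with most molecules in each tag its ratio fell from 3.67 to 1.81. Mgl2, at 547, 599.5 and 189.8 CPM, was found in 19, 14 and 13 members, and its ratio was 3.16, or 3.94 without the top cell of each tag. Each tag is 1 pooled sample of unnamed genotype, so whether these differences go with genotype, animals or handling cannot be told apart.

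**Figure D5:**
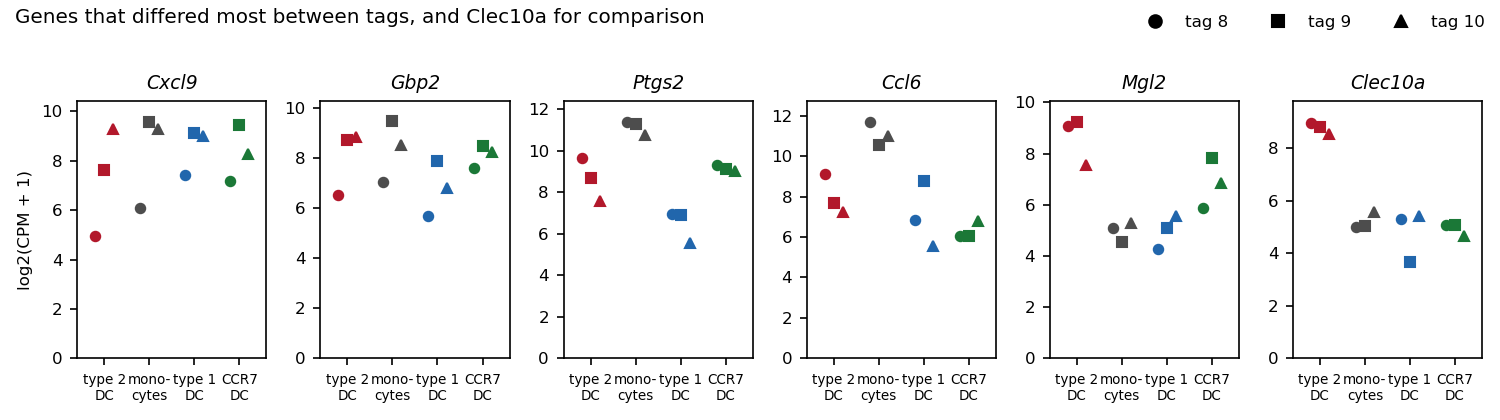
Levels as log2(CPM + 1) in tags 8, 9 and 10 for the 5 genes whose tags lay furthest apart in the members, and for Clec10a, in the 4 classes. Cxcl9 is lowest in tag 8 in every class, at 30.04 CPM in the members and 66.8 CPM in monocytes, while Clec10a in the members spans 377 to 499.9 CPM.

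Markers of other cell types were found in the members and in the classes they were compared with. B cell genes were found for 3 of 6, with Cd79a and Ms4a1 among those at 0, at a summed level of 116 to 175 CPM per tag. Ighm, the heavy chain of immunoglobulin M, made up most of it, at 120.2, 169.6 and 107 CPM, and was called higher than in monocytes, at 47.7, 42.6 and 49.6 CPM. Neutrophil genes were found for 6 of 6 (43.9 to 118 CPM), melanoma genes for 5 of 6 (21.5 to 44.0 CPM) and mast cell and basophil genes for 2 of 6 (0 to 12.9 CPM). Fibroblast genes were found for 5 of 6 at 5.85 to 173 CPM, and 61 of their 69 molecules lay in 1 cell. The 6 plasmacytoid genes summed to 349 to 640 CPM in the members, 134 to 156 CPM in monocytes, 600.2 to 885 CPM in type 1 and 131 to 169 CPM in CCR7 dendritic cells, and the 3 of them that were tested against monocytes (Siglech, Ccr9 and Tcf4) were called higher. In the compared classes, melanoma genes reached 1782 CPM in a tag of type 1 dendritic cells, with 1239 of 1294 molecules in 1 cell, and fibroblast genes 7646 CPM in a tag of CCR7 dendritic cells, with 5019 of 8032 molecules in 1 cell. The contrasts were rerun without cells holding 10 or more molecules of the T, B, NK, neutrophil, melanoma and fibroblast genes. Against monocytes, 6 calls of named genes were then lost and 1 was gained. Against type 1 dendritic cells 4 were lost and 10 gained, and against CCR7 dendritic cells 6 were lost and 6 gained. No called gene reversed. The part of the mast cell and basophil genes was not tested.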

How the data were processed

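The deposited table held whole-number counts of unique molecules for 24510 genes in 14899 cells (1 BD Rhapsody whole-transcriptome library), which the authors made on GRCm38 (GENCODE vM19) using version 1.9.1 of BD's WTA Multiplex Rhapsody pipeline, per the file headers. The submitters' processing notes name GRCm39, and the header was followed. The deposited tag calls gave tag 8, 9 or 10, a multiplet or undetermined, and no genotype. The series' design names a targeted kit, but the header and the genes are those of a whole-transcriptome library. Tag totals were 21662592, 21753076 and 23683689 molecules, and the 10491 kept cells had a median of 3489. The 1448 multiplet calls were left out, doublets of cells with 1 tag were not removed, and no doublet caller was run.

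Counts were summed per class and tag and scaled to CPM. Cells are not replicates and the tags carry no genotype, so no test was run and no p-value is given. Intervals are exact Poisson and Clopper-Pearson at 95% and cover counting error only, since molecules of 1 cell are not independent samples. Genes were named if they were in a gene list or the rule, among the 15 highest and 15 lowest called genes against monocytes or the 10 and 10 against each other class, or among the 5 with the largest spread between tags. The members and lists were chosen with earlier results of these data known. Alternatives changed the scaling (TMM, edgeR 4.0.16, R 4.3.3), the depth, the limits of the rule and the tags used. Sequences came from RefSeq promoter windows of GRCm38.p6. The call rule was tested on simulated data. Scripts used matplotlib 3.10.9, biopython 1.88, pandas 2.3.3, numpy 2.4.6 and scipy 1.17.1 under Python 3.11.15.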

Additional observations from a re-analysis of the deposited data

Results flagged for a closer look

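Cells whose tag call was a multiplet were outside every comparison, and 18 of the 1271 that passed the same limits on genes and mitochondrial molecules also met the type 2 dendritic cell rule (1.42%, exact 95% interval 0.841% to 2.23%). They are listed because they lie outside the data compared and number more than the 3 cells, or 0.236%, that a count of 0 allows. A multiplet holds transcripts of more than 1 cell, so no share of type 2 dendritic cells is read from them. The 18 cells that met the rule had a median of 6270 molecules per cell. Of 175 cells with an undetermined tag that passed those limits, 3 met the rule (1.71%, exact 95% interval 0.355% to 4.93%), which is at the limit that a count of 0 allows.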

How the results depend on the processing

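With every cell thinned to 1000 molecules, fewer genes could be tested: 5651 in place of 10122 against monocytes, 1947 of 7590 against type 1 and 3045 of 8204 against CCR7 dendritic cells. Then 152 genes were higher and 203 lower than in monocytes, 88 and 52 than in type 1 dendritic cells, and 155 and 204 than in CCR7 dendritic cells. Of these, 105 and 159, 78 and 42, and 105 and 162 were also called at full depth. A minimum of 100 molecules left 174 genes lower than in type 1 and 277 higher than in CCR7 dendritic cells, with fewer genes tested. With 1 Cd209a molecule allowed, the median share of the tags was 2.35%. With 1 tag left out, the counts ranged over 520 to 540 higher and 605 to 653 lower against monocytes, 364 to 391 and 383 to 405 against type 1, and 515 to 588 and 609 to 624 against CCR7 dendritic cells, and the share over 1.57% to 1.72%. No median of a named gene called in the report reversed in any alternative run. Against type 1 dendritic cells, thinning moved the share of higher calls from 49.5% to 62.9%. Totals without mitochondrial, ribosomal and immunoglobulin genes moved the median over all genes against monocytes from 0.03 to 0.10. The calls of Psap and Fcgr1 against monocytes were then lost. H2-Eb1 against monocytes also lost its call at a mitochondrial limit of 10% (1.03) and without cells holding 10 or more molecules of other cell types (1.10). After thinning, the calls of Tlr7, Tlr13, Nlrp3 and Csf2rb against monocytes and of Pdcd1lg2, Csf1r and Kit against CCR7 dendritic cells were lost. The alternatives that left out cells with plasmacytoid transcripts or the cell with most molecules of a gene in each tag were chosen after seeing the data. Every ratio was taken within a tag, so the classes were compared tag by tag throughout. No fit with a replicate block was made, since no result comes from a test.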
